A study of Mus musculus with 13 samples.

Results

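The genes described here encode surface and secreted molecules through which a tumour cell can restrain, or be killed by, immune cells. They are Pvr, Nectin2, Cd200, Cd274, Cd276, Cd47, Lgals9, Nt5e, Tgfb1 and Fas, 10 of the 22656 genes in the deposited table. They were listed by name and found in it by their mouse Ensembl identifiers. Averaged over the 13 libraries, 8 of the 10 had at least 10 normalised counts, and Fas and Nt5e had fewer. All libraries came from B16F10-TR-shApoe, a derivative of the mouse melanoma line B16F10 with a hairpin RNA against its own Apoe. The cells had been injected into a tail vein of knock-in mice carrying APOE2 (8 libraries) or APOE3 (5 libraries), and lungs were collected on day 15. Cells low in the dye TO-PRO-3, negative for the leukocyte antigen CD45 and positive for GFP were sorted. These are alleles of human apolipoprotein E, a lipid-carrying protein. The hairpin was common to both groups, and the labels give the host allele as the difference between them. The age of the mice, and whether the line is 1 clone, are not given in the sources used here.

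Checkpoint ligands are proteins on a target cell that engage inhibitory receptors on T cells, natural killer cells or macrophages. PD-L1, CD155, CD112, CD200 and CD47 belong to this class. Tumour cells can also restrain immunity by making extracellular adenosine or active TGF-beta, or by losing the death receptor FAS. B16F10 is known as a poorly immunogenic melanoma with a low basal level of antigen presentation, and PD-L1 on such cells is induced mainly by interferon gamma.

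Upstream sequence was examined because these genes include known interferon targets. A RefSeq start (GRCm38.p6) was found for 9 of the 10 genes, and the 250 bases before it were searched on both strands for GAAA followed by any 2 bases and GAAA, the letters of an interferon regulatory factor element, and for GGGCGG, the letters of a GC box. The first was found in 1 of the 9 genes, Lgals9, and in 2.98% of 32851 windows of the same length. The second was found in 8 of the 9, all but Lgals9, and in 32.7% of the windows. By the GENCODE annotation the windows of Cd276 and Nt5e lay wholly within exons. In the window of Cd274, 185 bases lay in an exon of Plgrkt. The motifs do not overlap. Lgals9 and Nectin2 are shown because they carry different motifs and because Lgals9 varied more between APOE3 libraries and Nectin2 more between APOE2 libraries, as given further on. Capitals mark the motif. In Lgals9 it reads as the reverse complement and begins 55 bases before the start. In Nectin2 it occurs 2 times, beginning 34 and 11 bases before the start.
Lgals9 (chr11:78984947-78985174, minus strand, 228 bases that end at the first annotated exon): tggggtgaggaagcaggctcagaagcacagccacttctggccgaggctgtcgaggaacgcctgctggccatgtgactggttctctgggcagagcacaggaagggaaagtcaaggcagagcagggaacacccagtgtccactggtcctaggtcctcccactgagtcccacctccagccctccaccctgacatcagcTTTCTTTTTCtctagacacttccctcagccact
Nectin2 (chr7:19749574-19749823, minus strand, 250 bases inside the GENCODE gene but outside its exons): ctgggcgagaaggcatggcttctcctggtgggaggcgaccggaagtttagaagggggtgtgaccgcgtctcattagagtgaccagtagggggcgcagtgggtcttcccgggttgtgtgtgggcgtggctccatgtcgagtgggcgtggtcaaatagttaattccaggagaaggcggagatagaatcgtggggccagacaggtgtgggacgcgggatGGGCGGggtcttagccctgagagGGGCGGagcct

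Depth and cell identity bear on all values below. Reads recovered from the table ranged from 7080308 to 13039989 per library. Apoe, the target of the hairpin, averaged 1730 ± 375 normalised counts under APOE2 (SD, n = 8) and 1845 ± 441 under APOE3 (SD, n = 5). The 8 melanocyte markers summed to between 40980 and 56456 parts per 1000000 normalised counts (ppm) in APOE2 libraries and to between 33164 and 43914 ppm in APOE3 libraries, and Dct was the most abundant. Markers of other cells were present at lower sums, with higher medians in APOE3 libraries for 4 of 5 lists. The 15 lung epithelium genes, led by Sftpc, summed to 80.5 to 488 ppm in APOE2 and 423 to 2581 in APOE3. The 14 endothelium genes, led by Eng, summed to 90.4 to 146 and 135 to 301. The 13 fibroblast and smooth muscle genes, led by Dcn, summed to 15.3 to 56.9 and 34.9 to 237. The 19 leukocyte genes, led by Lyz2, summed to 59.5 to 303 and 262 to 1494. Hbb-bs led the erythroid genes, which summed to 4.80 to 22.0 and 2.84 to 26.8. Among APOE3 libraries the lung epithelium sum and the leukocyte sum were both highest in replicate 4 and lowest in replicate 1. The leukocyte sum followed Lyz2 most, which averaged 1162 normalised counts in APOE2 and 5288 in APOE3. Which cells gave the Lyz2 reads was not tested, so this sum is not a separate measure of leukocytes. Other genes of the leukocyte list did not all go the same way. Cd74 averaged 32.2 in APOE2 and 116 in APOE3, but S100a8 122 and 118, and Itgam 8.27 and 4.75. Ptprc, which encodes CD45, had reads in every library, from 1.01 to 16.4 normalised counts in APOE2 and from 4.21 to 38.5 in APOE3. The T cell gene Cd3e was at 0 in 10 libraries and the natural killer cell gene Ncr1 in 12. Many of the genes below are also expressed by such cells. In bulk RNA, fewer cells of a type and less RNA per cell cannot be told apart.

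**Figure D1:**
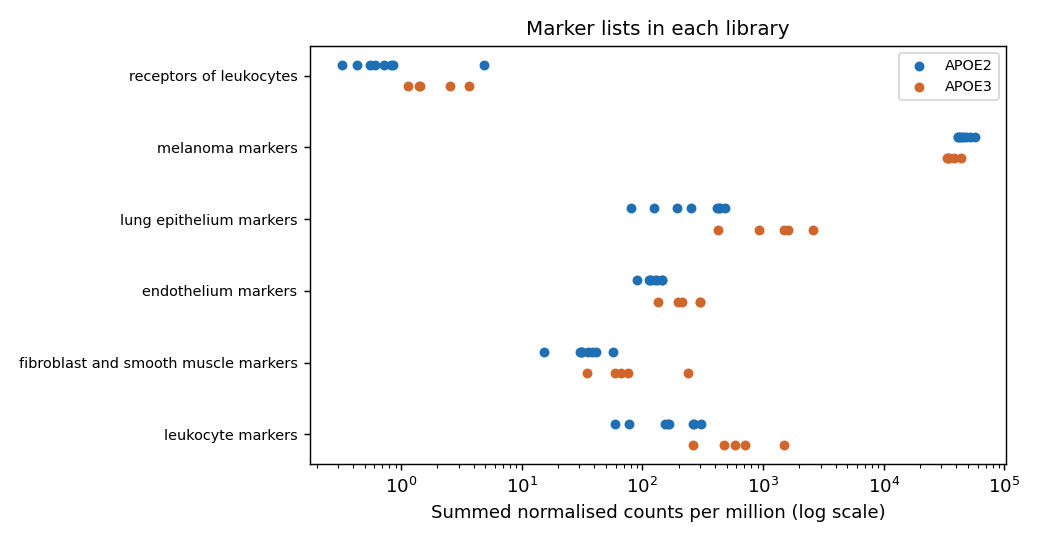
Summed normalised counts in ppm (log axis) of marker lists and of leukocyte receptors; each point is 1 library, blue for APOE2 and orange for APOE3 hosts. The melanocyte sum was highest in every library, and the lung epithelium sum reached 2581 ppm in APOE3 replicate 4.

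None of the 8 tested genes passed the limma test between hosts. Their Benjamini-Hochberg adjusted p-values, taken over 12403 genes, ran from 0.176 to 0.901, and 0 of 8 were under 0.05. Of all genes tested, 0.790% passed, 0.379% with the lower and 0.411% with the higher value in APOE2 hosts. edgeR and DESeq2 on the recovered reads also called 0 of the 8, against 1.11% of all tested genes in edgeR (0.621% lower and 0.492% higher in APOE2) and 2.51% in DESeq2. At an unadjusted limma p under 0.05 there were 3 of the 8 (Pvr, Cd200 and Tgfb1), each with the lower value in APOE2 hosts, and among all genes tested 6.71% were lower by that criterion. The point estimate was lower in APOE2 hosts for 8 of the 8, as it was for 49.9% of all tested genes. The median log2 fold change (APOE2 minus APOE3, on the log2 scale of normalised counts plus 1) was −0.36 for the 8 and 0.000365 for all tested genes. For 0 of the 8 were the groups free of overlap, against 0.508% of all genes with every APOE2 library below every APOE3 library and 0.476% with every one above. The replicates are libraries, equal in number to the mice that the design text counts. The labels do not say which mouse gave which library, so p-values measure the spread between these samples.

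**Figure D2:**
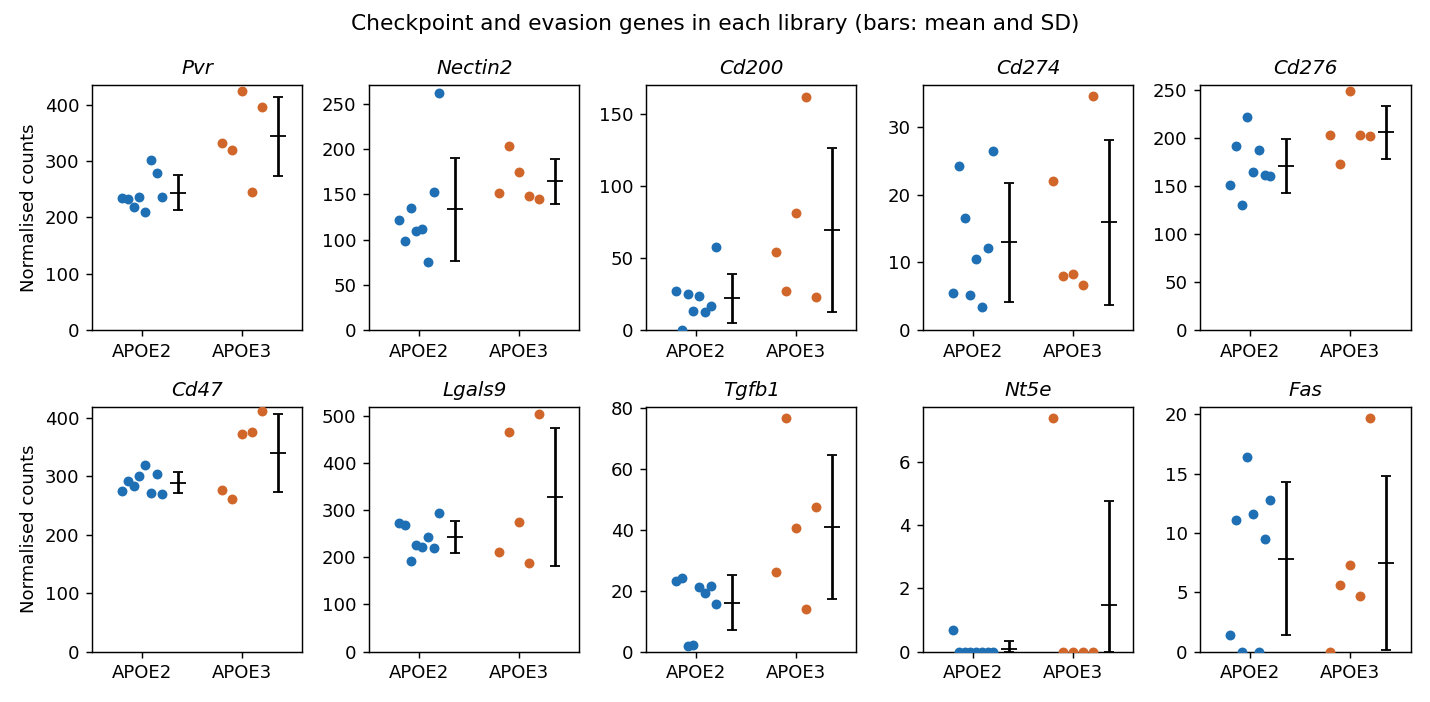
Normalised counts of the 10 genes in each library (points; blue APOE2, 8 libraries; orange APOE3, 5 libraries) with the group mean and SD in black, drawn no lower than 0. The 2 groups overlap for every gene, and the vertical scale differs between panels.

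Pvr and Nectin2 encode the related proteins CD155 and CD112, which bind the activating receptor CD226 and, respectively, the inhibitory receptors TIGIT and PVRIG. Both lie on mouse chromosome 7 on the minus strand, Nectin2 at 19716644 to 19750483 and Pvr at 19903578 to 19921160 (GRCm38). Their lower coordinates are 17.5 and 204 kb from 19699188, the higher coordinate of Apoe, which lies on the same strand. Pvr (ENSMUSG00000040511) ran from 209 to 301 normalised counts in the 8 APOE2 libraries, with a median of 235. Pvr had 332, 320, 425, 246 and 397 in APOE3 replicates 1 to 5. APOE3 replicate 4 lay within the APOE2 range, and the other 4 APOE3 libraries lay above the highest APOE2 library. Group means of Pvr were 244 ± 30.9 (SD, n = 8) and 344 ± 70.2 (SD, n = 5). The log2 fold change of Pvr was −0.48, with a 95% interval of −0.82 to −0.14, a limma unadjusted p of 0.00717 and an adjusted p of 0.176. It was the smallest adjusted p of the 8 genes, and on the log2 scale each of the 8 APOE2 values was under the mean of the APOE3 group. With lung epithelium, endothelium and leukocyte markers as covariates the estimate for Pvr was −0.37, −0.53 and −0.51, with an unadjusted limma p of 0.142, 0.0834 and 0.0277. Sums of these markers overlapped little between hosts. The covariates were means of log2 values over each list, not these sums, and their own overlap is not given. Such fits, here and below, may therefore hardly tell host and marker level apart.

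Nectin2 (ENSMUSG00000062300) ran from 75.6 to 262 normalised counts in APOE2, with a median of 117. Its values in APOE3 replicates 1 to 5 were 152, 203, 175, 148 and 145. The APOE3 libraries lay close together, whereas APOE2 replicate 8, at 262, lay above every other library, and the next APOE2 value was 153. The coefficient of variation of Nectin2 was 42.7% in APOE2 and 15.1% in APOE3. For Nectin2 the log2 fold change was −0.38 (95% interval −0.89 to 0.13, limma adjusted p = 0.502). Without APOE2 replicate 8 it was −0.53, with an unadjusted limma p of 0.0264 and an adjusted p of 0.316. The exons of Nectin2 overlap Gm20512 on the opposite strand. The strand setting of the counting is not given, so reads of the 2 genes cannot be told apart.

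Cd274, Cd276 and Cd200 encode ligands of T cells and myeloid cells. Cd274 encodes PD-L1, the ligand of PD-1, Cd276 encodes B7-H3, and CD200 binds an inhibitory receptor on myeloid cells. Cd274 (ENSMUSG00000016496, chromosome 19) was low in all libraries. It ran from 3.39 to 26.5 normalised counts in APOE2, with a median of 11.3. Cd274 had 22.1, 7.91, 8.33, 6.59 and 34.7 in APOE3 replicates 1 to 5. These values rested on 3 to 30 reads per library. High and low libraries occurred in both groups, with APOE3 replicate 5 the highest of all. The log2 fold change of Cd274 was −0.27, with a 95% interval of −1.67 to 1.14 (limma adjusted p = 0.901), so that a difference of 1 in either direction on the log2 scale lies within the interval. Without APOE3 replicate 5 its sign changed, to 0.073. AC119228.1 overlaps exons of Cd274 on the opposite strand.

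Cd276 (ENSMUSG00000035914, chromosome 9) ran from 131 to 222 normalised counts in APOE2, with a median of 163. In APOE3 replicates 1 to 5 it had 203.3, 173, 249.8, 203.3 and 202. In APOE2, 5 of the 8 libraries lay below the lowest APOE3 library. Cd276 had a log2 fold change of −0.27 (95% interval −0.65 to 0.099, limma adjusted p = 0.511). Its spread was the narrowest of the 8 genes in APOE3, with a coefficient of variation of 13.4% against 7.15% from counting reads alone. Gm10657 overlaps exons of Cd276 on the opposite strand.

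Cd200 (ENSMUSG00000022661, chromosome 16) had the largest estimated difference of the 8 genes and the largest coefficient of variation in APOE3, 81.7%. It ran from 0 to 57.7 normalised counts in APOE2, with a median of 19.8. In APOE3 replicates 1 to 5 Cd200 had 53.7, 27.1, 81.2, 162 and 23.1. The 0 was in APOE2 replicate 2, where a count of 0 allows up to 3 reads, and the highest value was in APOE3 replicate 4. The log2 fold change of Cd200 was −1.82, with a 95% interval of −3.30 to −0.33, an unadjusted limma p of 0.0184 and an adjusted p of 0.250. Without APOE2 replicate 2 the log2 fold change of Cd200 was −1.25, and without APOE3 replicate 4 it was −1.42, with an unadjusted limma p of 0.0775. APOE3 replicate 4 also had the largest sums of lung epithelium markers (2581 ppm), leukocyte markers led by Lyz2 (1494) and fibroblast and smooth muscle markers (237). Its endothelium sum was 298 ppm, beside 301 in APOE3 replicate 5, where Cd200 was lowest of the 5 APOE3 libraries. The part of any of these cells in the Cd200 values was not tested. With leukocyte markers as a covariate the estimate for Cd200 was −1.27, with endothelium markers −1.63 and with lung epithelium markers −2.31. The unadjusted limma p was 0.188, 0.215 and 0.0408 in these fits.

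Cd47 and Lgals9 act on phagocytes and T cells. CD47 engages SIRP-alpha on macrophages and restrains phagocytosis, and galectin-9, the product of Lgals9, is a secreted lectin for which TIM-3 has been described as a receptor. Cd47 (ENSMUSG00000055447, chromosome 16) ran from 269 to 319 normalised counts in APOE2, with a median of 288. The APOE3 libraries had 276, 262, 373, 376 and 412 normalised counts of Cd47 in replicates 1 to 5. APOE3 replicates 1 and 2 lay within or below the APOE2 range and replicates 3, 4 and 5 above it. The coefficient of variation of Cd47 was 6.15% in APOE2, near the 5.68% that counting reads alone gives, and 19.6% in APOE3, against 5.58% from counting. Cd47 had a log2 fold change of −0.21 (95% interval −0.52 to 0.10, limma adjusted p = 0.552), the smallest in size of the 8 genes.

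Lgals9 (ENSMUSG00000001123, chromosome 11), the gene whose upstream sequence above holds the interferon-type element, ran from 192 to 294 normalised counts in APOE2, with a median of 234. Lgals9 had 212, 465.5, 275, 187 and 503 in APOE3 replicates 1 to 5. APOE3 replicates 2 and 5 lay above all other libraries, and the remaining 3 lay in or below the APOE2 range. The coefficient of variation of Lgals9 was 14.0% in APOE2 and 44.6% in APOE3. Its log2 fold change was −0.33 (95% interval −0.78 to 0.11, limma adjusted p = 0.496). Without APOE3 replicate 4 it was −0.51, and without APOE3 replicate 5 it was −0.15. Cd274 was high in 1 of these 2 libraries only, with 34.7 in APOE3 replicate 5 and 7.91 in replicate 2.

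Tgfb1 encodes the cytokine TGF-beta 1, and Nt5e encodes CD73, which forms adenosine from extracellular AMP. Tgfb1 (ENSMUSG00000002603, chromosome 7) ran from 1.84 to 24.2 normalised counts in APOE2, with a median of 20.2. Its APOE3 values, replicates 1 to 5, were 26.3, 76.8, 40.6, 14.1 and 47.4. APOE2 replicates 3 and 4 had 2 reads each, and 4 of the 5 APOE3 libraries lay above every APOE2 library. Tgfb1 was lowest among APOE3 libraries in replicate 4, which had the largest lung epithelium, leukocyte, and fibroblast and smooth muscle sums. Pvr and Lgals9 were also lowest of the APOE3 libraries there, and Cd200 was highest. The part of other cells was not tested. The log2 fold change of Tgfb1 was −1.48, with a 95% interval of −2.81 to −0.14, an unadjusted limma p of 0.0320 and an adjusted p of 0.305. It was −0.39 in a fit with lung epithelium markers as a covariate and −0.60 with leukocyte markers, but −1.22 with endothelium markers. The unadjusted limma p was 0.675, 0.466 and 0.299 in these fits. It was −1.16 without APOE2 replicate 3 and −1.17 without APOE2 replicate 4.

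Nt5e and Fas were too low for the test. Nt5e (ENSMUSG00000032420, chromosome 9) was at 0 in 11 libraries, where a count of 0 allows up to 3 reads, or from 2.59 to 3.47 normalised counts depending on the library. It had 1 read in APOE2 replicate 1 and 7 reads, or 7.37 normalised counts, in APOE3 replicate 1. A level of Nt5e was thus not detectable at this depth in 7 of the 8 APOE2 and 4 of the 5 APOE3 libraries. Fas (ENSMUSG00000024778, chromosome 19), the receptor through which Fas ligand triggers apoptosis, ran from 0 to 16.4 normalised counts in APOE2, with a median of 10.3. Values of Fas in APOE3 replicates 1 to 5 were 0, 5.65, 7.28, 4.71 and 19.7. Libraries at 0 occurred in both groups, 2 in APOE2 and 1 in APOE3. The difference in mean log2 value of Fas was −0.059, which is smaller than the spread within either group.

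**Figure D3:**
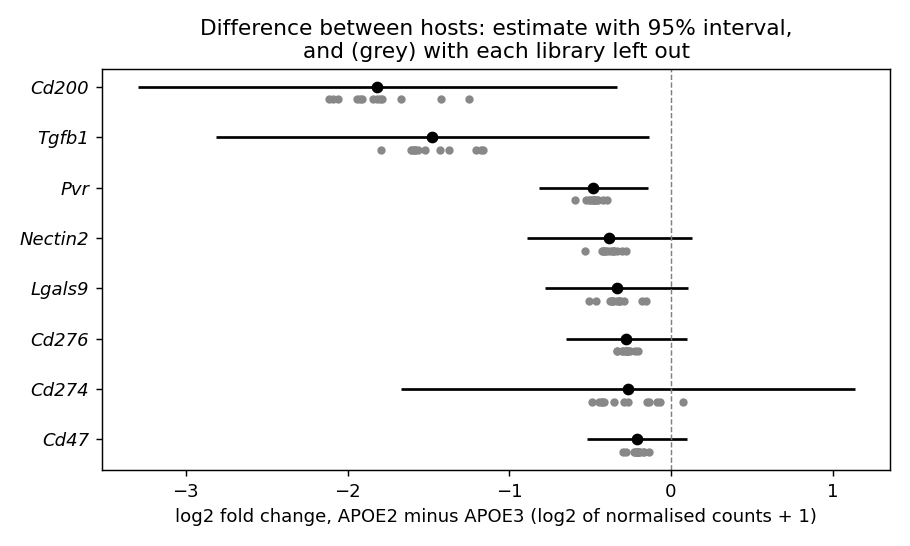
Log2 fold change (APOE2 minus APOE3) of the 8 tested genes with its 95% interval (black) and the values obtained when each of the 13 libraries was left out in turn (grey). Intervals of Pvr, Cd200 and Tgfb1 lie below 0 without adjustment for the number of genes, and a grey point of Cd274 lies above 0.

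Levels of the 10 genes spanned a wide range. The libraries count tags near the poly(A) tail, so values were not divided by transcript length, and levels between genes are set side by side on the scale of such tags. Over all 13 libraries the mean was 309 normalised counts for Cd47, 282 for Pvr, 275 for Lgals9, 185 for Cd276 and 145 for Nectin2. It was 40.2 for Cd200, 25.7 for Tgfb1, 14.1 for Cd274, 7.70 for Fas and 0.62 for Nt5e. The means of Cd47, Pvr and Lgals9 differed from each other by less than the SD of any of them in APOE3. Among the 8 tested genes the highest library was an APOE3 library for 7, and for Nectin2 it was APOE2 replicate 8. APOE3 replicate 5 was highest for 3 of them (Cd274, Cd47 and Lgals9) and replicate 3 for 2 (Pvr and Cd276).

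Receptor genes of leukocytes were looked for as a check on the sort. Of 14 such genes on a chosen list, 10 were listed in the table and 0 reached a mean of 10. Their sum was 0.32 to 4.83 ppm in APOE2 and 1.14 to 3.67 in APOE3. The highest of the 10 was Havcr2, which encodes TIM-3, with means of 4.28 in APOE2 and 4.82 in APOE3. Receptors outside this list did pass the filter, among them Sirpa, the receptor of CD47, described below. Which cells the Sirpa reads came from was not tested.

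Genes that act with these 10 were examined in 8 lists holding 107 genes, of which 75 were tested. In limma 0 of the 75 passed the adjusted threshold, with 8 lower and 2 higher at an unadjusted p under 0.05. These are 10.7% and 2.67% of the 75, against 6.71% and 7.51% of all tested genes. Their median log2 fold change was −0.055, with 45 lower and 30 higher. edgeR on the recovered reads called 0. DESeq2 called 3, all lower in APOE2, against 1.27% of all tested genes called lower and 1.23% higher. A share of so few genes is not read as a result about the lists. The 3 were Ltbp4 (log2 fold change −1.43, adjusted p = 0.0224), Ifngr1 (−0.64, 0.0496) and Adora2b (−3.51, 0.0260). Adora2b and Vsir, both among the 8 lower genes, passed the filter only through the APOE3 group, as given below. Thbs1 and Ltbp1, among the 45, did so too, with APOE2 means of 9.19 and 8.93. Such genes could hardly enter except as lower, which tilts the counts and medians of the lists.

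**Figure D4:**
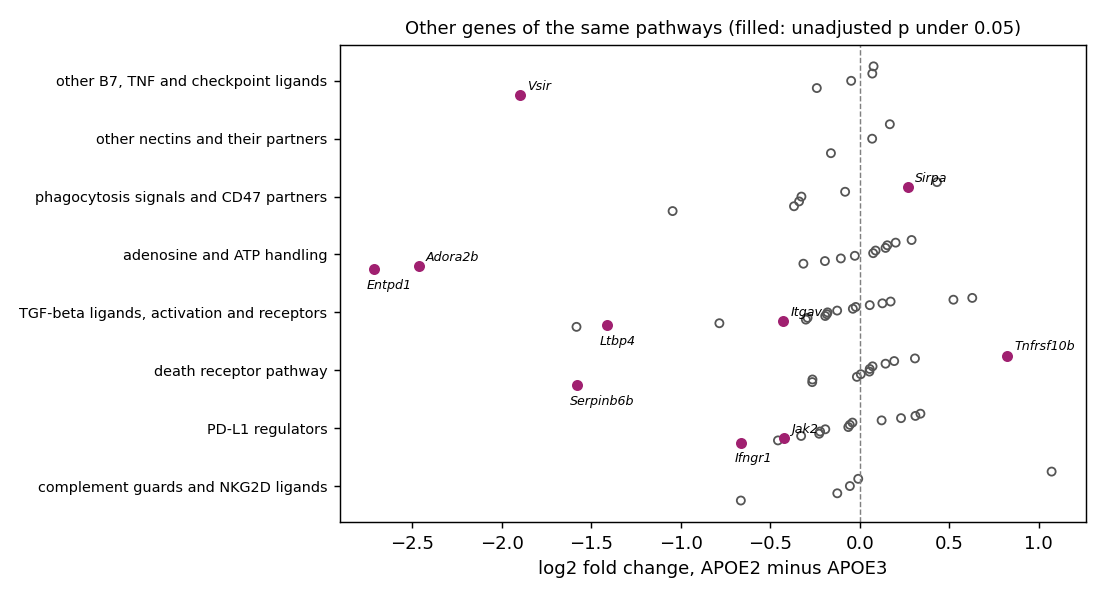
Log2 fold change (APOE2 minus APOE3) of the 75 tested genes of the 8 accompanying lists, 1 point per gene and 1 row per list. Filled points have an unadjusted limma p under 0.05, of which 8 lie below 0 and 2 (Sirpa and Tnfrsf10b) above.

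Regulators of PD-L1 were the list in which all genes passed the filter, 14 of 14, with 10 lower, 4 higher and a median log2 fold change of −0.13. Ifngr1, the ligand-binding chain of the interferon gamma receptor, ran from 87.8 to 151 normalised counts in APOE2, with a median of 125. In APOE3 replicates 1 to 5 it had 163, 179, 185, 208 and 193. Every APOE2 library of Ifngr1 lay below every APOE3 library, as for 0.508% of all tested genes. Its log2 fold change was −0.66 (95% interval −1.08 to −0.24, limma adjusted p = 0.134). Jak2, the kinase that works with this receptor, averaged 209 ± 34.0 normalised counts under APOE2 (SD, n = 8) against 279 ± 32.8 under APOE3 (SD, n = 5) (log2 fold change −0.42, limma adjusted p = 0.249.) Irf1, a transcription factor downstream of it, was singled out after its values were seen. Irf1 had 281 ± 75.4 (SD, n = 8) and 293 ± 72.6 (SD, n = 5), a log2 fold change of −0.055. The receptor and kinase thus had lower estimates in APOE2, and Irf1 differed by less than its spread, with a limma adjusted p of 0.934.

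In the adenosine list 12 of 14 genes were tested, 6 lower and 6 higher, with a median of 0.024. Entpd1 encodes CD39, the ectonucleotidase that supplies AMP to CD73. It averaged 10.9 ± 11.3 normalised counts under APOE2 (SD, n = 8) against 46.9 ± 22.1 under APOE3 (SD, n = 5) (log2 fold change −2.71, limma adjusted p = 0.121.) Adora2b, an adenosine receptor, had 2.53 ± 2.72 and 28.9 ± 27.9 (SD) (log2 fold change −2.46, limma adjusted p = 0.327.) Both were highest in APOE3 replicate 4, each at 69.7 normalised counts, the library with the largest sums of 3 of the marker lists of other cells, and the part of those cells was not tested. With its APOE2 mean under 10, Adora2b passed the filter only through the APOE3 group.

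For TGF-beta ligands, activation and receptors 17 of 20 genes were tested, 12 lower and 5 higher, with a median of −0.18. Ltbp4, a protein that binds latent TGF-beta, ran from 8.27 to 79.0 normalised counts in APOE2 and from 59.0 to 301 in APOE3. Its log2 fold change was −1.41 (limma adjusted p = 0.144), and it too was highest in APOE3 replicate 4. Itgav, the integrin chain shared by receptors that activate latent TGF-beta, had a log2 fold change of −0.43 (adjusted p = 0.275). Among partners of CD47, 7 of 8 genes were tested, with a median of −0.33. Sirpa, the receptor of CD47, had 1105 ± 146 (SD, n = 8) and 917 ± 135 (SD, n = 5) normalised counts (log2 fold change 0.27, limma adjusted p = 0.331.) Anxa1, a phospholipid-binding protein exposed on dying cells, had a log2 fold change of 0.43 (adjusted p = 0.531.)

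In the death receptor list 12 of 15 genes were tested, 4 lower and 8 higher, with a median of 0.055. Tnfrsf10b, the mouse receptor of TRAIL, averaged 111 ± 24.4 normalised counts under APOE2 (SD, n = 8) against 73.1 ± 39.0 under APOE3 (SD, n = 5) (log2 fold change 0.82, limma adjusted p = 0.299.) APOE3 replicate 2, at 15.8, was the lowest library. Serpinb6b, a serpin, had a log2 fold change of −1.58 (adjusted p = 0.306). Of other B7, TNF and checkpoint ligands 5 of 20 genes were tested, with a median of −0.047. Vsir, which encodes the checkpoint protein VISTA, had 0 to 12.1 normalised counts in APOE2 and 13.6 to 48.0 in APOE3, without overlap. Its log2 fold change was −1.90 (limma adjusted p = 0.270), and APOE3 replicate 4 was again the highest. Hmgb1 had a log2 fold change of −0.24 (adjusted p = 0.761).

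Of the other nectins and their partners 3 of 6 genes were tested, with a median of 0.070. Cadm1, an adhesion molecule of the same superfamily, averaged 2273 ± 202 normalised counts under APOE2 (SD, n = 8) against 2535 ± 106 under APOE3 (SD, n = 5) (log2 fold change −0.16, limma adjusted p = 0.461.) Afdn, the scaffold that binds nectin tails, had a log2 fold change of 0.17 (adjusted p = 0.549.) Complement guards and NKG2D ligands had 5 of 10 genes tested, with a median of −0.055. Cd46 (log2 fold change 1.07, adjusted p = 0.682) and Mill2 (−0.66, 0.731) were both under 50 normalised counts in every library.

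For the 3 most abundant of the 10 genes, the genes most alike in pattern were sought among 9679 others by the Pearson correlation of log2 values over the 13 libraries, after the group mean had been taken off. These are the highest of many values and carry no test. Pvr was most like Ripk1 (r = 0.90), Lmx1b (0.85) and Zfp358 (0.82). Cd47 was most like Tmem107 (0.89), Emp1 (0.87) and Ube2d1 (0.86). Lgals9 was most like Kctd15 (0.93), Lgals7 (0.93) and Sh3pxd2b (0.91). None of these 9 genes had a limma adjusted p under 0.05 between hosts, and their log2 fold changes ran from −0.35 for Emp1 to 0.53 for Ube2d1.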

How the data were processed

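Per gene and library, the authors deposited a normalised count, treated here as a signal. Per the submitters' processing notes STAR 2.6.0, featureCounts and DESeq2 1.28.1 were used on mm10. The strand setting and annotation are not given in the sources used here. The library kit was QuantSeq forward, per the labels' protocols. In each column 100% of nonzero values were whole multiples of 1 step, within 0.001, which gave the reads behind them. Symbols came from GENCODE M21 (22649 of 22656 identifiers matched, 7 did not).

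Values were tested as log2(value + 1) with limma 3.58.1 (trend, two-sided, Benjamini-Hochberg over 12403 genes with a mean of at least 10, threshold 0.05) in R 4.3.3. The pseudocount makes fold changes of low genes too small. The fit was tested on simulated data. Alternatives were pseudocounts of 0.5 and 5, equal totals, TMM, no filter, only genes averaging 50 or more, omission of each library, a replicate block, limma without trend, edgeR 4.0.16 and DESeq2 1.42.0 on recovered reads, and marker means as covariates. Genes named beyond the 10 are, by rule, the 2 with the smallest p of each list, the most abundant of each marker list and of the leukocyte receptors, and the 3 most alike of the 3 most abundant. Ptprc, Cd74, S100a8, Itgam, Cd3e, Ncr1 and Irf1 fall outside this rule and were chosen after their values were seen. Apoe, also outside it, is named as the target of the hairpin. The 10 genes and all lists were chosen with earlier results of these data known. Counting errors and floors do not cover duplicate molecules, since reads carry no molecular identifiers.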

Additional observations from a re-analysis of the deposited data

Results flagged for a closer look

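A library far from the others of its group was found in 6 of 34 screens. These covered the 10 genes and 7 sums of marker or receptor genes. Chance gives about 1.7 for normally distributed values, which counts near 0 are not. Nectin2 in APOE2 replicate 8 had 262 normalised counts, with the next library at 153. Cd200 in the same library had 57.7, with the next APOE2 library at 27.3. Nt5e stood apart in APOE2 replicate 1 (0.68) and in APOE3 replicate 1 (7.37), since the remaining libraries were at 0. In such a group any single value above 0 is flagged. The leukocyte receptor sum was 4.83 ppm in APOE2 replicate 1, with the next at 0.85. The fibroblast and smooth muscle sum was 237 ppm in APOE3 replicate 4, with the next at 76.4.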

How the results depend on the processing

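Across 26 alternatives, which gave 205 values of the 8 tested genes, 0 values passed the adjusted threshold, and the smallest adjusted p was 0.0817, for Pvr with DESeq2. The sign differed in 4 of the 205. With the endothelium marker covariate the log2 fold change was 0.10 for Cd274, 0.11 for Cd47 and 0.10 for Lgals9, and with single libraries left out Cd274 ranged from −0.49 to 0.073, the latter without APOE3 replicate 5. An unadjusted p under 0.05 was found in 24 of 26 alternatives for Pvr, 22 of 25 for Cd200 and 17 of 25 for Tgfb1. The genes called higher and lower in APOE2 among all genes were 51 and 47. They were 5 and 4 with no filter, 17 and 26 with the replicate block, 0 and 0 without trend, with the lung epithelium covariate or with the endothelium covariate, 9 and 0 with the leukocyte covariate, 153 and 158 with DESeq2, 61 and 77 with edgeR, and 65 and 73 with pseudocount 5; the cause was not tested. With each library left out they ranged from 5 to 131 higher and from 4 to 97 lower. At an unadjusted p under 0.05 there were 1599 genes without trend, 870 with the lung epithelium covariate and 728 with the endothelium covariate. Sums of the covariate markers overlapped little between hosts, but the covariates were means of log2 values, whose own overlap is not given. In those fits host and marker level may hardly be told apart. Of the accompanying lists, 3 genes were called with DESeq2. Same-numbered libraries shared only a number, with correlations of their deviations from the group means from −0.063 to 0.014 and 0 of 5 best with their own number. With the replicate block 0 of the 8 genes were called, and Pvr had a log2 fold change of −0.58. Reads limit Cd274, Fas and Nt5e most.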
